A study of Ovis aries with 20 samples.

Results

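The interferon-induced genes ISG15, MX1 and MX2 and the transcription factor IRF3 were followed in the hearts of newborn lambs. These are 4 of the 850 genes that could be named on a sheep microarray, and they hold 5 of its 15008 probes: 1 probe each for ISG15, MX1 and MX2, and every probe that the files name IRF3, of which there were 2. ISG15, MX1 and MX2 were chosen by the large swings of their measured levels over the arrays, shared by both heart regions. IRF3 did not swing this way and was taken by its name, after its small unadjusted p-values in these data had been seen. The range of the 4 genes and their likeness over arrays are therefore given as a description, without a test. RNA came from septum (the wall between the ventricles) and left ventricle (LV) of singleton lambs whose mothers received cortisol, the main adrenal glucocorticoid, at 1 mg/kg per day, or vehicle. Infusion of the ewe started near day 115 of gestation and went on until birth, and hearts were taken 10 to 480 min after birth, with no time given for the single lamb. The 4 groups were septum of cortisol lambs, septum of control (vehicle) lambs, LV of cortisol lambs and LV of control lambs, with 5 arrays in each. The lambs were not treated directly. The titles of all samples also hold the word telemetry, and what it refers to is not stated there. No strain, sex or infection status was used here.

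Interferons are secreted signals that cells release on sensing foreign or misplaced nucleic acid, and they act on neighbouring cells through surface receptors. IRF3 stands near the start of this pathway: it is present in resting cells, is activated by phosphorylation when a sensor is triggered, and then turns on interferon genes and some interferon-induced genes. ISG15, MX1 and MX2 stand at its end. ISG15 is a ubiquitin-like protein that is attached to other proteins, and MX1 and MX2 are dynamin-like GTPases that block steps of viral replication. In most tissues at rest the 3 induced genes are low, while IRF3 RNA is made all the time.

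Each probe is a 60-base DNA strand, and the stretches below are shown because all values that follow rest on these few strands. ISG15 is given whole, and the others by 30 bases each. The array's own files call the ISG15 probe ISG17, an older name, and its RefSeq transcript belongs to ISG15. In MX2 the capitals mark AATAAA, the letters of the common polyadenylation signal, found by a search on the strand shown. In IRF3 the capitals mark the 23 bases that both printed stretches hold.
ISG15: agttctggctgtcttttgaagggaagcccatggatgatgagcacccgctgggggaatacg
MX1: tttgtgaatgcacacagaagcctattcctt
MX2: tcatataaacttcatattctAATAAAtcac
IRF3, first probe: GGCTGTTTATCCGCCCGTGCAAGccactca
IRF3, second probe: tccttaaGGCTGTTTATCCGCCCGTGCAAG
The whole IRF3 probes start 23 bases apart on their target and share 37 of their 60 bases, so they are repeat readings of nearly the same stretch and not independent evidence. The MX1 and MX2 genes lie next to each other on the sheep RefSeq assembly, with 0 genes between them. The sequences are those of the array files, no genome build is named there, and exon or UTR positions were not used here.

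Between 57.9% and 72.1% of spots were well above background per array, and none of the 5 probes was saturated on any array. A level below is the log2 of the processed spot intensity minus the 75th percentile of that array, so that 0 is the brightness of that percentile. Levels of different probes are not comparable with each other. The LV and septum arrays of the same treatment and number shared their deviations and were taken as 1 lamb. Myoglobin (MB), a heart muscle marker, stood at 7.87 or higher on all arrays with a usable spot. In bulk tissue, fewer cells of a type and less RNA per cell cannot be told apart.

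ISG15 was high in 3 lambs and low in the other 7. Its septum levels in cortisol lambs 1 to 5 were -2.87, -3.56, -2.94, 2.17 and -3.61, against 3.97, -0.17, -2.37, -3.11 and -2.62 in control lambs 1 to 5. In LV they were -2.64, -3.97, -3.28, 2.70 and -3.24 in the cortisol lambs, against 4.28, 0.29, -2.70, -3.34 and -3.15 in the control lambs. Cortisol lamb 4 and control lamb 1 were therefore high in both regions, control lamb 2 was intermediate in both, and the cortisol and control groups overlapped in both regions. Averaged over the regions, ISG15 stood at 2.44 in cortisol lamb 4, 4.13 in control lamb 1 and 0.06 in control lamb 2, while the other 7 lambs lay between -3.77 and -2.53. The gap between control lamb 2 and the next lamb was 2.60, and the gaps within those 7 lambs were 0.12 to 0.34. ISG15 was well above background on 19 of 20 arrays, and over those 19 its highest level exceeded its lowest by 7.90 on the log2 scale, or 239-fold.

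MX1 gave the same order of the 3 lambs. Its septum levels in cortisol lambs 1 to 5 were -2.17, -2.55, -2.17, 2.11 and -2.46, against 3.47, -0.22, -1.97, -2.45 and -1.65 in control lambs 1 to 5. In LV they were -1.86, -3.32, -3.21, 2.29 and -2.65 in the cortisol lambs, against 3.55, 0.13, -1.66, -2.83 and -1.53 in the control lambs. Cortisol lamb 4 and control lamb 1 were again the 2 high ones and control lamb 2 the intermediate one, and the treatment groups overlapped. MX1 was well above background on all 20 arrays, and its levels spanned 6.87 on the log2 scale, or 117-fold.

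MX2 was the dimmest of the 3 against background, well above it on 14 of 20 arrays. That held for 5 of 5 septum arrays of cortisol lambs and 4 of 5 of control lambs, and for 1 of 5 LV arrays of cortisol lambs and 4 of 5 of control lambs. Its septum levels in cortisol lambs 1 to 5 were -4.23, -4.73, -3.83, 0.44 and -4.57, against 1.56, -2.88, -5.18, -5.56 and -4.02 in control lambs 1 to 5. In LV they were -3.98, -4.36, -3.95, 0.56 and -5.10 in the cortisol lambs, against 1.33, -2.42, -4.99, -4.66 and -4.24 in the control lambs. The order of the 3 lambs was that of ISG15 and MX1, and 4 of the 5 LV levels of cortisol lambs were not well above background. Over the 14 arrays well above background MX2 spanned 6.74 on the log2 scale, or 107-fold.

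**Figure D1:**
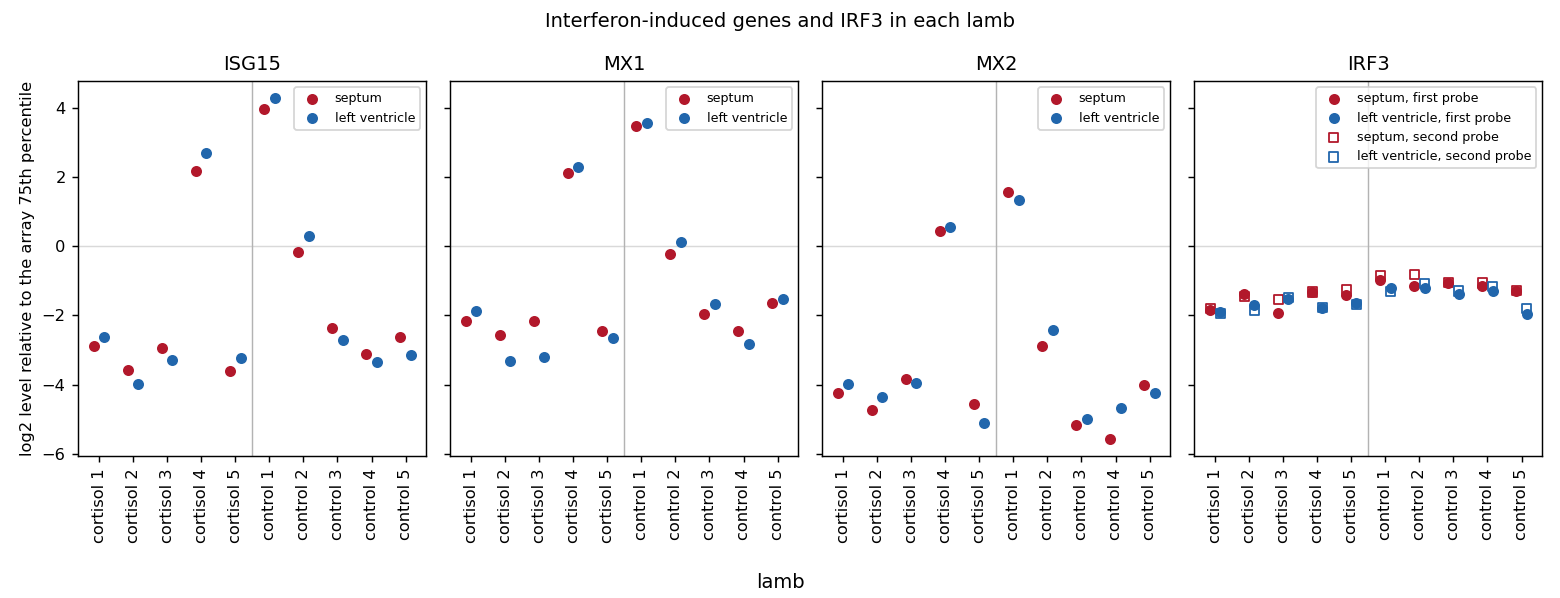
Log2 level of ISG15, MX1, MX2 and IRF3 relative to each array's 75th percentile (vertical axis, the same in all panels) in each lamb, cortisol lambs left and control lambs right of the grey line, septum in red and LV in blue. Cortisol lamb 4, control lamb 1 and control lamb 2 stand above the other 7 lambs in the 3 induced genes and in both regions, while both IRF3 probes stay between -1.96 and -0.83 on all 20 arrays.

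The high arrays did not all share a slide. Control lambs 1 and 2 were read on slide 1 in septum and on slide 3 in LV, beside low arrays of both treatments on the same slides. On slide 1 ISG15 ran from -3.56 to 3.97 over 6 arrays, and on slide 3 from -3.97 to 4.28 over 6 arrays. The septum array of cortisol lamb 4 was on slide 2, where ISG15 ran from -3.61 to 2.17 over 7 arrays, but its LV array was alone on slide 4. Array brightness did not go with the induced genes: over the 20 arrays, after subtracting each region's mean, their mean level correlated at 0.096 with the 75th percentile and at 0.0892 with the share of spots well above background.

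The 3 induced genes moved together over the arrays. After subtracting each region's mean, Pearson's r over the 20 arrays was 0.989 between ISG15 and MX1, 0.964 between ISG15 and MX2 and 0.958 between MX1 and MX2. Spearman's rho, which weighs the high arrays less, was 0.922, 0.699 and 0.707 for these pairs in the same order. Without the 3 lambs that stood apart, over the remaining 14 arrays, r was 0.742 for ISG15 with MX1, 0.0192 for ISG15 with MX2 and 0.0765 for MX1 with MX2. The likeness of MX2 to the other genes was thus seen only with those 3 lambs, and that of ISG15 and MX1 was also present in the low range. All arrays on which MX2 was not well above background are among these 14. Its r there therefore cannot show whether a likeness was absent. These correlations pool 2 arrays per lamb and are descriptions.

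The septum and LV of a lamb carried nearly the same level of each induced gene. Over the 10 lambs, r between the regions was 0.994 for ISG15, 0.982 for MX1 and 0.986 for MX2, against a median of 0.722 over 10069 probes. Over the 7 lambs other than the 3 that stood apart it was 0.716, 0.797 and 0.675 in the same order. The standard deviation within groups was 2.85 for ISG15, 2.31 for MX1 and 2.49 for MX2, against a median of 0.419 over all probes. By that measure ISG15 ranked 12, MX2 18 and MX1 26 of 10069 probes.

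IRF3 barely varied. The first IRF3 probe read -1.83, -1.37, -1.93, -1.31 and -1.42 in septum of cortisol lambs 1 to 5, against -0.98, -1.16, -1.07, -1.15 and -1.28 in control lambs 1 to 5. In LV it read -1.91, -1.70, -1.51, -1.79 and -1.64 in the cortisol lambs, against -1.21, -1.21, -1.39, -1.29 and -1.96 in the control lambs. All septum readings of cortisol lambs lay below all septum readings of control lambs, while in LV the groups overlapped because control lamb 5 was the lowest of the 10. The second IRF3 probe read -1.80, -1.46, -1.54, -1.32 and -1.24 in septum of the cortisol lambs, against -0.84, -0.83, -1.04, -1.06 and -1.28 in the control lambs. In LV it read -1.94, -1.87, -1.49, -1.76 and -1.68 in the cortisol lambs, against -1.31, -1.08, -1.29, -1.17 and -1.79 in the control lambs. With the second probe the groups overlapped in both regions, by control lamb 5 in each. Over all 20 arrays IRF3 spanned 0.98 and 1.11 on the log2 scale (1.97-fold and 2.16-fold) with the first and second probe, and its standard deviations within groups of 0.232 and 0.218 ranked 9001 and 9246 of 10069 probes. The 2 probes correlated at 0.904 over the 20 arrays.

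IRF3 did not follow the induced genes across their wide range, and its order over the lambs matched theirs only in part. In cortisol lamb 4, where ISG15, MX1 and MX2 were the highest of the cortisol lambs, IRF3 averaged over the regions stood at -1.55 with the first probe and -1.54 with the second, inside the range of the 7 low lambs (-1.87 to -1.22 and -1.87 to -1.12). Those low lambs include both treatments, and the other cortisol lambs alone ran from -1.87 to -1.53 and -1.87 to -1.46. In septum the first probe was highest of the cortisol lambs in lamb 4 (-1.31). The second probe in septum and both probes in LV were not. In control lambs 1 and 2 the first probe stood at -1.10 and -1.19 and the second at -1.07 and -0.95, each slightly above the highest of the 7 low lambs. Over the 20 arrays r with ISG15 was 0.401 for the first probe and 0.375 for the second, and over the 14 arrays without the 3 lambs 0.0465 and 0.137. With MX2 it was 0.25 and 0.217, and over those 14 arrays -0.662 and -0.579. With MX1 it was 0.348 and 0.33, and over those 14 arrays -0.196 and -0.0533. In the low range r was thus small for ISG15 and MX1. MX2 was near background there, so its r cannot show a relation.

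**Figure D2:**
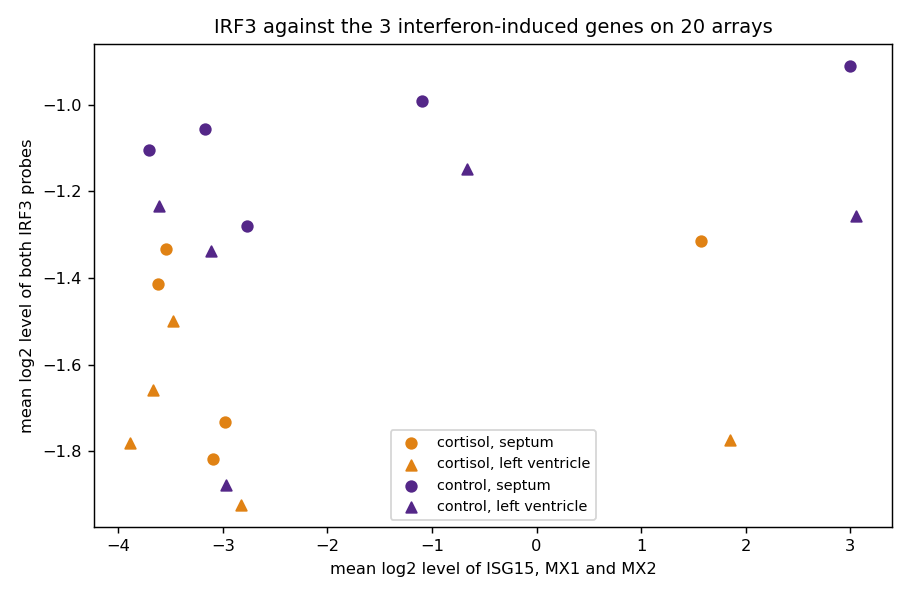
Mean log2 level of both IRF3 probes (vertical axis) against the mean log2 level of ISG15, MX1 and MX2 (horizontal axis) on 20 arrays, cortisol in orange, control in purple, circles for septum and triangles for LV. The 6 arrays of the 3 lambs to the right span most of the IRF3 range, and the axes differ in scale: IRF3 covers about 1 log2 unit and the induced genes more than 6.

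The comparison of cortisol with control lambs asks whether raised maternal cortisol goes with a different level of these transcripts in the newborn heart. For the induced genes the differences were smaller than their errors or close to them. In septum, ISG15 averaged -2.16 ± 2.45 in cortisol lambs and -0.86 ± 2.92 in control lambs (SD, n = 5 each), a log2 difference of -1.30 ± 1.46 (SE) with an adjusted p of 0.840 in limma. MX1 differed by -0.88 ± 1.20 (adjusted p = 0.860 in limma) and MX2 by -0.17 ± 1.37 (adjusted p = 0.979 in limma). In LV, ISG15 averaged -2.08 ± 2.72 in cortisol lambs and -0.92 ± 3.26 in control lambs, a difference of -1.16 ± 1.60 with an adjusted p of 0.914 in limma. There MX1 differed by -1.28 ± 1.29 (adjusted p = 0.891 in limma) and MX2 by -0.37 ± 1.30 (adjusted p = 0.970 in limma). MX2 reached the LV test through 4 control arrays and 1 cortisol array. Its other cortisol levels lay near background, so the size of its LV difference is poorly measured. Errors of 1.20 to 1.60 leave room for differences of several fold either way.

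Leaving out control lamb 1 turned the sign of 4 of these 6 differences. Without the septum array of control lamb 1, the septum differences were -0.10 for ISG15, 0.12 for MX1 and 1.03 for MX2. Without its LV array, the LV differences were 0.14 for ISG15, -0.28 for MX1 and 0.71 for MX2. Without cortisol lamb 4 they went the other way, to -2.39, -1.77 and -1.12 in septum and -2.36, -2.30 and -1.35 in LV. On slide 2 alone, which held cortisol lambs 4 and 5 and control lambs 3 and 5 in septum, the septum differences were 1.77, 1.64 and 2.54 for ISG15, MX1 and MX2, and on slide 1 alone, which held the other 6 septum arrays, they were -3.36, -2.56 and -1.97. In LV they were -3.71, -3.08 and -2.18 on slide 3 alone and -0.32, -1.06 and -0.48 on slide 2 alone.

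IRF3 was on average lower in cortisol lambs in both regions with both probes that carry its name, without passing the threshold over all probes. In septum the first probe averaged -1.57 ± 0.28 in cortisol lambs and -1.13 ± 0.11 in control lambs (SD, n = 5 each), a log2 difference of -0.44 ± 0.17 (SE; unadjusted p = 0.0224, adjusted p = 0.818 in limma). The second probe differed by -0.46 ± 0.16 in septum (unadjusted p = 0.0156, adjusted p = 0.818 in limma). In LV the first probe averaged -1.71 ± 0.15 in cortisol lambs and -1.41 ± 0.32 in control lambs, a difference of -0.30 ± 0.19 (adjusted p = 0.877 in limma), and the second differed by -0.42 ± 0.18 (unadjusted p = 0.0397, adjusted p = 0.877 in limma). In each region and with each probe 5 of 5 cortisol arrays lay below the control median. The share of all probes for which this holds was not counted, so the count lends no support. The LV and septum values come from the same lambs and the probes overlap, so these are not 4 separate observations.

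A further probe, which the array files list under the same assembled transcript cluster as both IRF3 probes but without a gene name, was not counted as IRF3 and was taken up after its values were seen. It did not show the LV difference. In septum it averaged -3.11 ± 0.37 in cortisol lambs and -2.76 ± 0.12 in control lambs (SD, n = 5 each), a difference of -0.36 ± 0.19 (SE; unadjusted p = 0.0879, adjusted p = 0.818 in limma). In LV it averaged -3.18 ± 0.36 in cortisol lambs and -3.21 ± 0.31 in control lambs, a difference of 0.03 ± 0.22 (unadjusted p = 0.899, adjusted p = 0.984 in limma). Between the regions it differed by 0.26 ± 0.14 (adjusted p = 0.467 in limma). It was well above background on 19 of 20 arrays, and its r with the mean of both IRF3 probes was 0.632 over the 20 arrays.

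Against all probes, 0 of 5 member probes passed in either region, and 0 of 10369 probes (0%) passed in septum and 0 of 9791 (0%) in LV. At an unadjusted p under 0.05, both IRF3 probes were among 385 probes (3.71%) in septum, and the second was among 508 probes (5.19%) in LV. Cortisol arrays all below control arrays were found for 1 of 5 member probes in septum, the first IRF3 probe, against 20 of 10369 probes (0.193%), and for 0 of 5 in LV, against 40 of 9791 (0.409%). IRF3 was among the small unadjusted p-values already seen in these data before it was taken up here, so these counts add no support.

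The IRF3 difference was larger than its error on slides 1 and 3 and lay within its error on slide 2. In septum the first probe differed by -0.61 ± 0.23 on slide 1, where 3 cortisol and 3 control arrays lay side by side, and by -0.19 ± 0.22 on slide 2, with 2 of each. The second probe differed by -0.69 ± 0.21 on slide 1 and -0.12 ± 0.22 on slide 2. In LV the first probe differed by -0.47 ± 0.20 on slide 3, with 3 of each, and by 0.03 ± 0.37 on slide 2, which held 1 cortisol and 2 control arrays. The second probe differed by -0.58 ± 0.21 on slide 3 and -0.14 ± 0.35 on slide 2. With background corrected by normexp in place of the scanner software, the differences shrank to -0.13 and -0.15 in septum and -0.15 and -0.16 in LV.

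**Figure D3:**
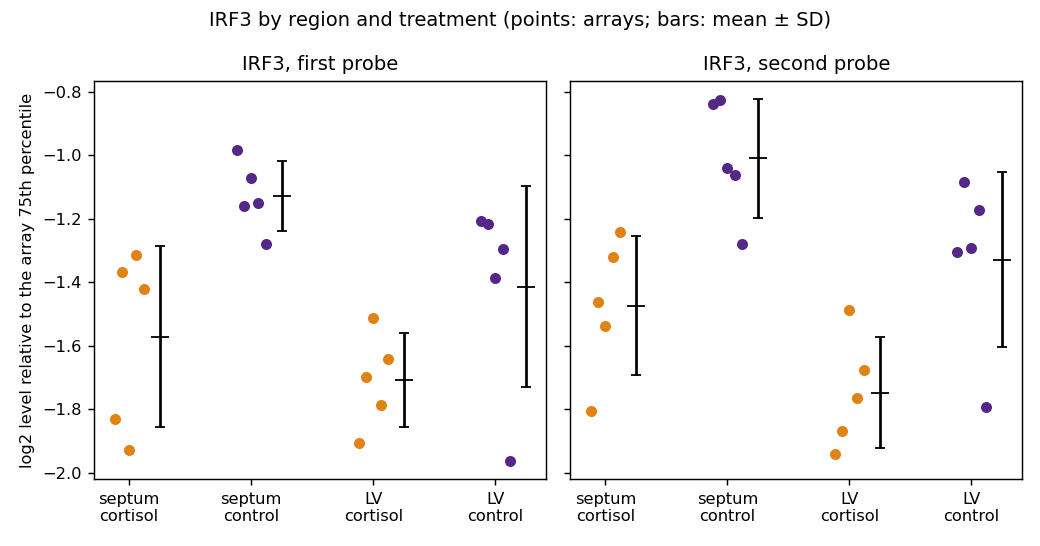
Log2 level of IRF3 relative to each array's 75th percentile with the first (left panel) and second probe (right panel), by region and treatment, points for arrays and bars for the mean ± SD of 5 arrays. Cortisol arrays sit lower on average in both regions, and the lowest LV control array is that of control lamb 5, at -1.96 and -1.79.

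The cortisol difference was also compared between the regions. ISG15, MX1 and MX2 had differences of this effect (septum minus LV) of -0.14 ± 2.34, 0.40 ± 1.89 and 0.20 ± 2.04 (SE), and IRF3 of -0.15 ± 0.23 with the first probe and -0.04 ± 0.22 with the second. None of the 5 passed in limma, where 0 of 10069 probes (0%) did and 38 (0.377%) had an unadjusted p under 0.05. This fit had no term for the lamb, so its errors include the spread between lambs and are wide for a contrast within lambs. Septum minus LV within a lamb ran only from -0.53 to 0.52 for ISG15, -0.36 to 1.04 for MX1 and -0.90 to 0.53 for MX2. With the lamb as a block no probe passed either.

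Between the regions, septum against LV, the induced genes showed no common direction and IRF3 was slightly higher in septum. ISG15 was higher in septum in 5 of 10 lambs, with differences within a lamb of -0.53 to 0.52 and a median of 0.00. MX1 was higher in septum in 4 of 10 lambs (-0.36 to 1.04) and MX2 in 4 of 10 (-0.90 to 0.53). The mean differences over lambs were -0.0083 ± 1.17 for ISG15, 0.10 ± 0.95 for MX1 and -0.12 ± 1.02 for MX2 (SE), with adjusted p of 0.998, 0.984 and 0.982 in limma. With the lamb as a block, which removes the spread between lambs, the errors of ISG15, MX1 and MX2 were 0.13, 0.13 and 0.12 and the adjusted p 0.971, 0.615 and 0.520. Regional differences of the induced genes within a lamb were thus at most 1.04 on the log2 scale, beside a span of 7.90 for ISG15 over the arrays.

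IRF3 was higher in septum than in LV in 9 of 10 lambs with each probe, and cortisol lamb 3 was the exception with both. The first probe differed by 0.21 ± 0.12 (SE; adjusted p = 0.476 in limma) and the second by 0.30 ± 0.11 (adjusted p = 0.243 in limma). Without the lamb in the model, 40 of 10069 probes (0.397%) passed, 3 higher (0.0298%) and 37 lower (0.367%) in septum, and 0 of 5 member probes did. With the lamb as a block, 1850 of 10069 (18.4%) passed, 892 of them higher in septum (8.86%), and the second IRF3 probe was one of these (adjusted p = 0.0180 in limma), while the first had an adjusted p of 0.133. Region was largely confounded with slide. With slide as a block the IRF3 differences were 0.44 ± 0.20 and 0.44 ± 0.19 (adjusted p = 0.814 for both in limma), and on slide 2 alone, the only slide with both regions, they were 0.39 ± 0.20 and 0.39 ± 0.19.

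**Figure D4:**
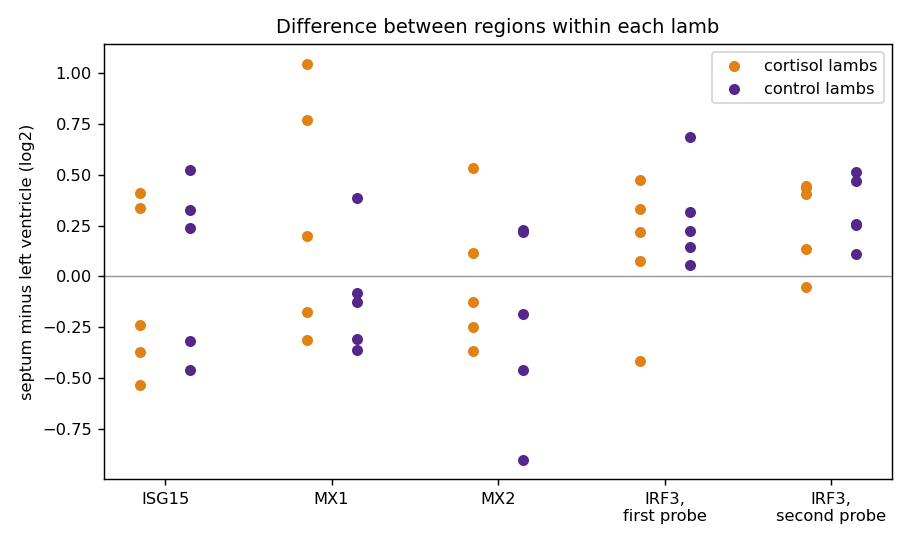
Septum minus LV difference of the log2 level (vertical axis) of the 5 probes within each lamb, cortisol lambs in orange and control lambs in purple, with a line at 0. ISG15, MX1 and MX2 fall on both sides of 0, and both IRF3 probes lie above 0 in 9 of 10 lambs.

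The named genes whose pattern over the 20 arrays was most like the mean of ISG15, MX1 and MX2 were taken by Pearson's r after subtracting region means. RTP4, a chaperone of receptor transport that is itself interferon-induced in other mammals, came first of 10064 other probes with an r of 0.976. Its level averaged over regions was 2.16 in cortisol lamb 4, 3.32 in control lamb 1 and 0.32 in control lamb 2, against -1.83 to -0.87 in the other 7 lambs, and these 3 had the same order as in ISG15. APOBEC3F (r = 0.882), which is listed under the name of a cytidine deaminase that restricts viruses, stood at -1.59, -1.39 and -1.75 in those 3 lambs, against -2.53 to -1.96. IRF1 (r = 0.865), a transcription factor induced by interferons, stood at -2.14, -1.15 and -2.60, against -4.01 to -2.78.

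PSMB8 (r = 0.827), a catalytic subunit of the immunoproteasome, stood at -0.05, 0.44 and 0.09 in cortisol lamb 4, control lamb 1 and control lamb 2, against -2.04 to -0.74 in the other 7 lambs. PSME2 (r = 0.817), part of the proteasome activator PA28, was at 4.08, 3.94 and 3.60, against 3.26 to 3.69, so that control lamb 2 was not apart. The probe for interferon-induced protein 1-8U (r = 0.792), of the family of antiviral membrane proteins IFITM, was at 4.88, 6.01 and 4.59, against 3.34 to 4.73. A probe for MHC class I antigen (r = 0.768) was at 4.65, 4.92 and 4.38, against 2.15 to 4.42. Control lamb 2 was not apart for the 1-8U and MHC class I probes either. All 7 of these probes were well above background on 20 of 20 arrays. Without the 3 lambs their r with the induced genes was between -0.25 and 0.38. In all, 43 of 10064 probes reached an r of 0.8 and 9 of those had a name, so most probes that share the pattern are unnamed here.

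The named genes most like IRF3 were not those most like the induced genes, apart from MHC class I. RABL2B, a small GTPase (r = 0.730 over the 20 arrays), CPT1B, the muscle enzyme that brings fatty acids into mitochondria (0.684), OVAR-DQA1, an MHC class II chain (0.664), and RAB7A, a GTPase of late endosomes (0.609), led the named ones. Without the 3 lambs their r with IRF3 was 0.852, 0.783, 0.731 and 0.717. A probe of MHC class I antigen (r = 0.577) was the only name to appear for both IRF3 and the induced genes, through different probes. None of the 5 was on the list of interferon-induced genes used here, but that list held no MHC chain other than B2M, so it could not include the MHC probes. The named probes most like the induced genes had r with the mean of both IRF3 probes from -0.17 (PSME2) to 0.54 (PSMB8). Next to the named genes closest to IRF3, 244 unnamed probes were at least as close as the last of them.

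Of 66 interferon-induced genes listed, 9 could be named on the array, and OAS, IFIT and RSAD2 genes were not analysed here. Beside ISG15, MX1 and MX2, 5 were tested: IRF1, PSMB8, PSME2, B2M and the 1-8U gene. The mean level of these 5 was 2.52 in septum and 2.43 in LV of cortisol lamb 4, against 3.15 and 3.02 in control lamb 1 and 2.35 and 2.32 in control lamb 2. These were the highest levels of the cortisol lambs for lamb 4 and of the control lambs for lamb 1. The lowest were 1.244 in septum and 1.085 in LV of cortisol lambs, and 1.104 and 1.006 in septum and LV of control lambs. B2M, the light chain of MHC class I, stood at 5.60 in cortisol lamb 4, 6.19 in control lamb 1 and 5.996 in control lamb 2, against 4.09 to 5.62 in the other lambs. CXCL10, a chemokine that attracts T cells, was not tested because it was well above background on 7 of 20 arrays. They included both arrays of each of the 3 lambs, where it averaged -2.13, -0.90 and -4.02, against -6.33 to -4.59 elsewhere.

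None of the 5 passed for cortisol: 4 were negative and 1 positive in septum with a median difference of -0.243, and 2 were negative and 3 positive in LV with a median of 0.0597. Over all probes 54.7% were positive in septum, with a median of 0.0341, and 49.1% in LV, with a median of -0.00725. PSMB8 differed by -0.56 ± 0.51 in septum and -0.48 ± 0.55 in LV (SE), with adjusted p of 0.826 and 0.896 in limma. Between regions 3 of the 5 were higher and 2 lower in septum, beside 54.9% of all probes higher there, and 0 of the 5 passed.

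**Figure D5:**
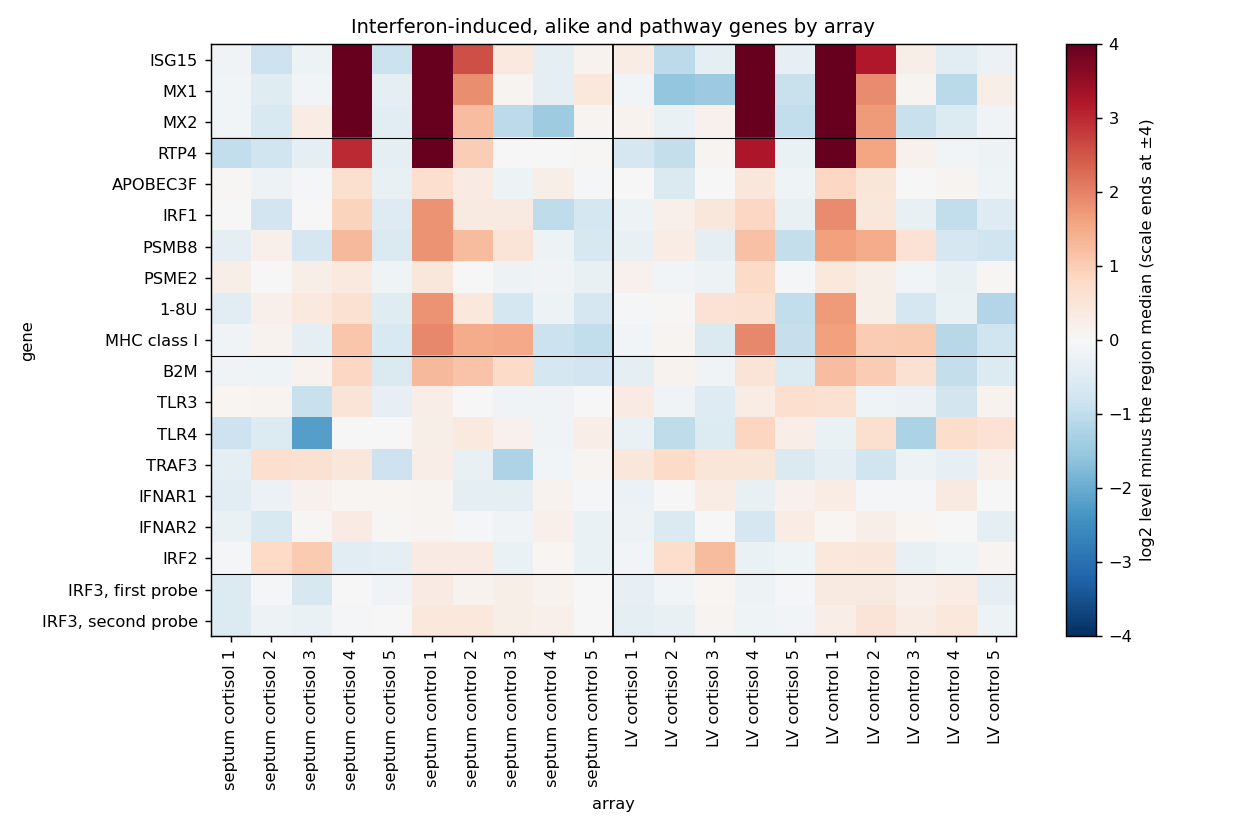
Log2 level minus the median of the same region (colour, with ends at ±4) for the 3 induced genes, 7 named probes most like them, 7 pathway genes and both IRF3 probes (rows) on the 20 arrays (columns), septum left of LV and cortisol left of control. The columns of cortisol lamb 4, control lamb 1 and, more weakly, control lamb 2 are mostly redder from ISG15 down to B2M than below it, and the strongest cells lie outside the colour scale, up to 7.21.

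Upstream of the induced genes, IFNG, the gene of interferon gamma, was well above background on 3 of 20 arrays. They were the septum arrays of cortisol lamb 3 (-3.88), control lamb 1 (-4.95) and control lamb 2 (-4.87). Control lambs 1 and 2 are among the lambs with high induced genes, while in cortisol lamb 4 IFNG was not well above background in either region. IFNG was too dim to be tested, and whether it shared the swing could not be read. Interferon receptor genes were measured with little spread. IFNAR1, a chain of the type I interferon receptor, stood at 2.48 in cortisol lamb 4, 2.78 in control lamb 1 and 2.38 in control lamb 2, inside the 2.23 to 2.85 of the other 7 lambs. IFNAR2, its partner chain, stood at -1.28, -1.02 and -1.01, against -1.70 to -0.94. IRF2, which opposes IRF1 at shared sites, stood at -2.33, -1.59 and -1.57, against -2.24 to -0.80, and its r with the induced genes was -0.0846. The receptors and IRF2 thus did not share the swing, and none of these 3 passed for cortisol in either region.

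Of 20 genes of sensing and induction, 10 could be named. Beside IRF3, 6 were tested in septum and 4 in LV, and 0 passed in either. TLR4 and TRAF3 are given because they had the smallest unadjusted p of these genes in septum and LV. Over all probes, 3.71% in septum and 5.19% in LV had an unadjusted p under 0.05 in limma, so these values add no support. TLR4, the receptor for bacterial endotoxin, averaged -5.07 ± 0.91 in septum of cortisol lambs and -4.17 ± 0.21 in that of control lambs (SD, n = 5 each), a difference of -0.90 ± 0.38 (SE; unadjusted p = 0.0351, adjusted p = 0.818 in limma), with 2 of 5 and 5 of 5 arrays well above background. The control arrays alone were enough to bring TLR4 into the septum test. Most of its cortisol arrays lay near background, so the size of that difference is poorly measured. In LV, TLR4 differed by -0.21 ± 0.44 (unadjusted p = 0.635 in limma). TRAF3, an adaptor that passes sensor signals on to the kinases of IRF3, averaged -3.83 ± 0.52 in LV of cortisol lambs and -4.46 ± 0.36 in that of control lambs, a difference of 0.62 ± 0.27 (unadjusted p = 0.0422, adjusted p = 0.877 in limma), with 3 of 5 and 2 of 5 arrays well above background. In septum, TRAF3 differed by 0.36 ± 0.36 (unadjusted p = 0.340, adjusted p = 0.833 in limma). TLR3, a sensor of double-stranded RNA, correlated at 0.520 with the induced genes over the 20 arrays and at 0.0732 without the 3 lambs. The mean of TLR2, TLR3, TLR4 and TRAF3, the 4 genes of this list other than IRF3 that were tested over both regions and had a value on all 20 arrays, stood at -3.61 in septum and -3.71 in LV of cortisol lamb 4, the highest of the cortisol lambs. It was -3.83 and -4.34 in control lamb 1 and -3.70 and -3.94 in control lamb 2, which was the highest of the control lambs in both regions. Its r with the induced genes was 0.617 over the 20 arrays and -0.184 over the 14 arrays without the 3 lambs. Taken singly, TLR2, TLR4 and TRAF3 had r of 0.189, 0.315 and 0.0864 over the 20 arrays. TLR4 and TRAF3 were well above background on 12 of 20 arrays each. TLR2 was too dim to be tested in LV alone. NFKBIA, a further gene of this list, had no value in LV of cortisol lamb 4 and was left out of the mean. The r of NFKBIA with the induced genes was -0.132, and -0.752 without the 3 lambs. The mean therefore does not stand for the whole list.

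Markers of other cells were set beside the swing. Of 24 leukocyte markers 6 could be named and 4 entered the mean, CD3D, CD3E, CD14 and CD86, while CD4 and ITGAM were too dim. Their mean level was -4.07 to -1.83 in septum of cortisol lambs and -5.02 to -2.62 in septum of control lambs, and -4.19 to -2.22 in LV of cortisol lambs and -4.65 to -2.59 in LV of control lambs. It stood at -2.65 and -2.68 in septum and LV of cortisol lamb 4, at -3.00 and -3.10 in control lamb 1 and at -2.84 and -2.59 in control lamb 2. Cortisol lamb 4 was the second highest of the 5 cortisol lambs in both regions, control lamb 1 was the third highest of the 5 control lambs in both, and control lamb 2 was the second highest in septum and the highest in LV. The r of the leukocyte mean with the induced genes was 0.318 over the 20 arrays and -0.208 without the 3 lambs, and its part in the swing was not tested. HBB, a red cell marker, had an r of -0.0418, though control lamb 2 held the highest levels of the control lambs (6.89 in septum and 6.92 in LV).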

How the data were processed

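RNA of 20 heart samples was hybridised in 1 colour (Cy3), per the labels. The scanner software (Agilent Feature Extraction 10.1.1.1) subtracted background to give the processed spot intensity, per the file headers, with no scaling between arrays. The deposited log2 values cover 10373 probes in LV and 4920 of them in septum. Over those 4920 their medians were 9.49 to 9.54 in septum and 8.64 to 8.69 in LV, by a normalization not given in the sources used here. The table was used as an alternative: for the members in LV only, since their septum cells are empty, and for the count of calls in both regions. No column belonged to other samples.

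Each array's log2 intensities were set relative to its 75th percentile (99.2 to 440.8 intensity units) and averaged over the spots of a probe, leaving out outlier spots (2 to 68 per array). A test took the probes that were well above background on 50% or more of its arrays. Comparisons used limma 3.58.1 (statmod 1.5.0, data.table, version 1.17.8) under R 4.3.3, with two-sided p-values adjusted over all probes tested (Benjamini-Hochberg) and a threshold of 0.05; names and figures used Python 3.11.15 and matplotlib 3.10.9. Of 15008 probes 1371 (9.14%) were named, for 850 genes, through the files and RefSeq names of the assembly ARS-UI_Ramb_v3.0; sequences were read from the array files. On simulated data, 34% and 35% of differences of 1 on the log2 scale were recovered for septum (10228 probes) and LV (9652 probes), and 78% and 87% of differences of 2. The changed probes were picked at random and the noise was independent between probes. These rates are therefore not those of the induced genes, which vary far more than most probes, or of the smaller IRF3 differences.

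Arrays of LV and septum with the same treatment and number had residuals that correlated at 0.447 to 0.813, each highest with its own partner in 10 of 10, and were taken as 1 lamb. The number of arrays limits the precision. The slide of each array was read from its header. The probes, gene lists and comparisons were chosen with earlier results of these data known. Named genes were the members, all list genes described, the 8 named genes most like the induced genes (1 of them is not reported here and was left out of the lists) and the 5 most like IRF3; a gene with several probes was represented by the one with the highest mean signal, except that every IRF3 probe is given. Alternatives were other scaling, background correction, filters, slide and lamb blocks, single slides, the deposited table, and leaving out each array or lamb. Fetal data of another series were not used here.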

Additional observations from a re-analysis of the deposited data

Results flagged for a closer look

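In groups of 5 arrays, the gap between an extreme array and its nearest neighbour was set against the group's whole range. Cortisol lamb 4 stood apart this way in all 3 induced genes and both regions. The gap was 0.872 of the range for ISG15, 0.917 for MX1 and 0.827 for MX2 in septum of cortisol lambs, and 0.80, 0.740 and 0.797 in LV of cortisol lambs, above the critical value of 0.71. In the control groups lamb 1 was the highest for these genes in both regions, but the intermediate control lamb 2 narrowed its gap to 0.523 to 0.624 of the range. For the first IRF3 probe, LV of control lamb 5 lay below the other control arrays by 0.765 of the range, and the second probe gave 0.686 there. In all, 7 of 20 combinations of probe and group were past the critical value, 6 of them of the induced genes. The induced genes were chosen for large swings, so their ratios are a description and the rate of about 1 in 20 that chance gives does not apply to them.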

How the results depend on the processing

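No probe passed for cortisol in septum or LV, or for the difference between them, under any alternative run; 7 to 1814, 227 to 1129 and 0 to 357 probes had an unadjusted p under 0.05. The septum against LV count of 40 was 63 with quantile normalization, 1 with normexp, 99 without and 79 with a stricter filter on dim probes, 0 with slide as a block, 0 on slide 2 alone, 1850 with the lamb as a replicate block, and 2 to 289 without single lambs. Of the 5 member probes only the second IRF3 probe changed its call there (adjusted p = 0.018 with the block, difference 0.30).

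Differences that changed sign, none of which passed, were these; the causes were not tested. Normexp gave 0.093 for MX2 in LV, 0.091 and 0.055 for ISG15 and MX2 between regions, and -0.067, -0.20, 0.021 and 0.0064 for MX1, MX2 and the first and second IRF3 probe in the difference of the cortisol effect. TLR4 became 0.040 in LV and 0.10 in septum. Slide 2 alone gave 0.035 for the first IRF3 probe, 0.60 for TLR4 and -0.57 for TRAF3 in LV, 1.77, 1.64 and 2.54 for ISG15, MX1 and MX2 in septum, and 1.47 and 1.53 for ISG15 and MX2 between regions. Slide as a block gave 1.86 and 1.72 for ISG15 and MX2 between regions and 1.36 for ISG15 in the difference of the effect.

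Leaving out single arrays gave ranges for LV of -2.36 to 0.14 (ISG15), -2.30 to -0.28 (MX1), -1.35 to 0.71 (MX2), -0.43 to -0.24 and -0.53 to -0.36 (IRF3), -0.55 to 0.0022 (TLR4) and 0.50 to 0.84 (TRAF3). In septum they were -2.39 to -0.10, -1.77 to 0.12, -1.12 to 1.03, -0.51 to -0.35, -0.53 to -0.38, -1.08 to -0.53 and 0.12 to 0.60 in the same order. Leaving out single lambs gave -0.069 to 0.057 for ISG15 between regions, and -0.097 to 0.037 for the second IRF3 probe in the difference of the effect.

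The r of ISG15 with the first and second IRF3 probe was 0.282 and 0.260 with arrays centred on their medians, and 0.219 and 0.167 with normexp; without the 3 high lambs it was 0.0465 and 0.137. For ISG15 with MX1, ISG15 with MX2 and MX1 with MX2 it was 0.742, 0.0192 and 0.0765 without them, an alternative chosen after seeing the data, as were those for r. A replicate block on the numbers that cortisol and control arrays share, which are not known to pair them (r over 0.1 in 3 of 5 pairs in septum and 4 of 5 in LV, own partner highest in 3 of 5 in each), left 0 probes past the threshold, and IRF3 at -0.44 and -0.46 in septum and -0.30 and -0.42 in LV. The deposited table gave -0.37 and -0.34 for IRF3 in LV. MX2 was not well above background on 6 arrays, and its low levels are poorly measured.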
